A study of Mus musculus with 282 samples.

Results

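Genes of prostaglandin metabolism and Anxa1 were followed in single basal stem cells sorted from naive or inflamed mouse prostates: Pla2g4a, Ptgs1, Ptgs2, Ptges, Hpgd, Ptger4 and Anxa1. They were taken by name, with earlier results of these data known, and all 7 were found among the 48440 gene rows of both count tables. The cells came from the prostates of male POET3 mice, which carry a transgene for ovalbumin in the prostate and serve as a model of prostatitis, so naive and inflamed cells share that transgene. The sources used here do not give the promoter of the transgene, the way inflammation was brought about, the age or number of the mice, or the sorting gates. Cells freed by collagenase and then trypsin were stained with a viability dye and against CD45, CD31, Sca-1 and CD49f, sorted, captured on a Fluidigm C1 instrument and sequenced as single-end reads, and each of the 282 deposited samples is 1 cell. After shallow cells were left out, 53 naive and 80 inflamed cells of batch 2 and 59 naive and 76 inflamed cells of batch 3 remained. Cells are not replicates, so the reads of each gene were summed over the cells of each condition and batch, which gave 4 sums, and levels are given as CPM, the counts of a sum scaled to its library size, unless stated otherwise.

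Prostaglandins are lipid signals made on demand. The cytosolic phospholipase encoded by Pla2g4a frees arachidonic acid from membranes, a cyclooxygenase (Ptgs1, usually constitutive, or Ptgs2, usually inducible) converts it to prostaglandin H2, and the microsomal synthase encoded by Ptges turns that into prostaglandin E2. Hpgd encodes the dehydrogenase that begins the inactivation of prostaglandin E2 inside cells, and Ptger4 encodes a receptor for it that signals through cyclic AMP. Anxa1 encodes annexin A1, a calcium-dependent phospholipid-binding protein known as an inhibitor of phospholipase A2 and as a ligand of formyl peptide receptors that dampens inflammation. On GRCm38 the GENCODE gene models lie at chr1:149829618-149961290 (Pla2g4a, minus strand), chr2:36230426-36252272 (Ptgs1, plus), chr1:150100031-150108227 (Ptgs2, plus), chr2:30889471-30929863 (Ptges, minus), chr8:56294585-56321043 (Hpgd, plus), chr15:5206661-5244187 (Ptger4, minus) and chr19:20373428-20390944 (Anxa1, minus).

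Ptgs2, Anxa1 and Hpgd had the lowest p of the 7 genes in edgeR, and their start regions are shown so that these genes can be read side by side. All 7 genes had an entry among the RefSeq promoters of GRCm38.p6, each with 250 bases before the annotated start and 50 from it on. The windows run 5′ to 3′ along the gene, at chr1:150099781-150100080 on the plus strand for Ptgs2, chr8:56294302-56294601 on the plus strand for Hpgd and chr19:20390622-20390921 on the minus strand for Anxa1. Capitals mark matches to the motifs searched on both strands.
Ptgs2: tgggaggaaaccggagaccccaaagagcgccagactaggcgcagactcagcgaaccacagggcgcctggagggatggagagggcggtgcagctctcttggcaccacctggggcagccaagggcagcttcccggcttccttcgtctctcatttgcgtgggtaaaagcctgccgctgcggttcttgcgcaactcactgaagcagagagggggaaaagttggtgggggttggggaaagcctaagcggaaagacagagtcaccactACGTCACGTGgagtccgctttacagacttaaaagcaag
Hpgd: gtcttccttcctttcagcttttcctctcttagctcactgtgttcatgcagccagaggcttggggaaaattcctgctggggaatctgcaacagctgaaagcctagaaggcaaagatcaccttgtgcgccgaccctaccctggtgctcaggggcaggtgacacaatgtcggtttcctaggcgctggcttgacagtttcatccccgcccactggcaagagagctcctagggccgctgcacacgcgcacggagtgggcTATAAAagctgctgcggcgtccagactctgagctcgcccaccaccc
Anxa1: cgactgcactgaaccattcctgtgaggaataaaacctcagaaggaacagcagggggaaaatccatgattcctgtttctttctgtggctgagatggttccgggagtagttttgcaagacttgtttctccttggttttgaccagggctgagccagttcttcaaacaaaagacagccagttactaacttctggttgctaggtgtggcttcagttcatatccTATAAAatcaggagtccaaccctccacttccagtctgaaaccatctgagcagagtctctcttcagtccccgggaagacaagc
The motifs were the NF-kB consensus, the TATA box TATAAA, the cyclic AMP response element core TGACGT, the AP-1 site TGANTCA, the STAT element TTCNNNGAA and the E-box CACGTG. The Ptgs2 window held the response element core on the opposite strand from position 13 after the start and an E-box from position 17, which share 2 bases. That core was present in 7.51% and the E-box in 7.15% of 32851 promoter windows of the same length. Hpgd had TATAAA from position 5 after the RefSeq start, which is 29 bases before the GENCODE start of the gene. Anxa1 had TATAAA beginning 32 bases before its RefSeq start, but the GENCODE start lies 273 bases upstream of the RefSeq start, so this match begins 241 bases inside the GENCODE gene. TATAAA was found in 13.6% of all windows. None of the windows of the 7 genes held the letters of the NF-kB consensus (8.46% of all windows), of the AP-1 site (7.81%) or of the STAT element (8.3%). These matches describe the letters of the windows and not binding.

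The 4 sums held 52061533 and 50105953 counts for naive and 79225330 and 78459122 for inflamed cells of batches 2 and 3. The median cell had between 840863 and 1001872 counts and between 3432 and 4739 detected genes, and the lowest of both medians belonged to naive cells of batch 3. The median mitochondrial share was 2.67% and 2.26% in naive and 3.73% and 2.82% in inflamed cells. All 10 basal epithelial markers were measured, and Krt14, Krt15 and Krt17 were each at 976 CPM or more in all 4 sums. Krt5 was at 338.9 and 198.6 CPM without and at 139.3 and 169.9 CPM with inflammation. Trp63 was at 268.9 and 344.5 CPM without and at 83.01 and 294 CPM with inflammation. Over the 10, both batches put 5 higher and 2 (Krt5 and Trp63) lower in inflamed cells, beside 4542 and 4068 of the 14713 genes tested. Among the 5, Krt17 was at 1668 and 3704 CPM without and at 6864 and 5813 CPM with inflammation. Col17a1, also higher, was at 121.5 and 111.9 CPM without and at 235.4 and 461.2 CPM with inflammation. The luminal keratin Krt18 was at 824.3 and 1226 CPM without and at 924.5 and 849.7 CPM with inflammation. Of 14 leukocyte markers 10 had no read in any kept cell, among them Ptprc, which encodes CD45. The summed leukocyte level was between 11.5 and 28.2 CPM, nearly all of it from Cd68. The 8 endothelial markers together stayed at or below 2.24 CPM. Of 10 fibroblast and smooth muscle markers, 4 had no read, and the summed level of between 3380 and 4430 CPM was nearly all Dcn.

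The comparison asked how expression differs between basal stem cells of inflamed and naive prostates. Over 14713 genes, edgeR's quasi-likelihood test with the batch as a block called no gene at a Benjamini-Hochberg adjusted p under 0.05 (0.0% of genes), and the lowest adjusted p was 0.568. At an unadjusted p under 0.05 it found 742 genes higher (5.04%) and 475 lower (3.23%) in inflamed cells. Of the 7 genes, 2 were among the former (Ptgs2 and Anxa1) and 1 among the latter (Hpgd). DESeq2, fitted to the same sums, called 927 genes higher (6.3%) and 534 lower (3.63%), and its calls included the same 3 of the 7. Ptgs2 stood at place 3 and Anxa1 at place 9 of the 14713 genes ordered by edgeR's p, and Hpgd at place 598. Both batches put 5 of the 7 genes higher in inflamed cells and 1, Hpgd, lower, beside 4542 and 4068 of all genes tested. Their median log2 difference was 0.88 in batch 2 and 1.56 in batch 3, beside 0.05 and 0.06 over all genes tested. The 7 genes were chosen with earlier results of these data known, so these comparisons with all genes are not a test of the set. A difference of 2-fold or more in the same direction in both batches was seen for Ptgs1, Ptgs2 and Anxa1 (higher) and for Hpgd (lower). Of the 9028 genes with a read in at least 20% of the cells of a group, 924 (10.2%) were that much higher and 817 (9.05%) that much lower.

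**Figure D1:**
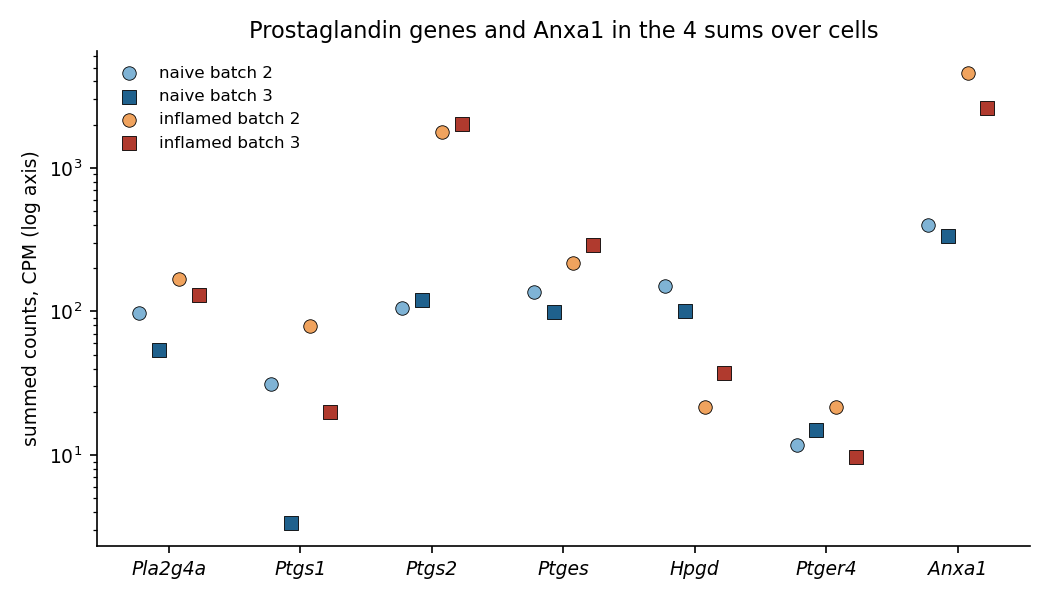
Level of each of the 7 genes in the 4 sums over cells, in CPM on a log axis (circles, batch 2; squares, batch 3; blue, naive; orange and red, inflamed). Ptgs2 and Anxa1 lie higher in both inflamed sums than in both naive sums, Hpgd lies lower, and the Ptger4 sums of the conditions interleave.

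Pla2g4a, at the release step, was at 97.02 and 53.67 CPM in naive cells of batches 2 and 3, and inflamed cells had 168.6 and 130.9 CPM. Both inflamed sums were above both naive sums, by 1.74-fold in batch 2 and 2.44-fold in batch 3. The fitted log2 difference was 1.04 ± 0.42 (SE) with an adjusted p of 0.599 in edgeR and of 0.302 in DESeq2, so it did not pass either test. In naive batch 3 a single cell supplied 76.3% of the Pla2g4a reads. Without the cell with most reads in each sum the folds were 1.88 and 7.83. The share of cells with at least 5 reads was 24.5% and 8.47% in naive and 41.2% and 35.5% in inflamed cells.

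Most other phospholipases were not measurable in these cells. Of the 17 genes listed for the release of arachidonic acid, 7 had no read in any sum and 6 were expressed enough to be tested. None of the 6 was called by edgeR or DESeq2. Pla2g4a and Pla2g16, a phospholipase first known from fat tissue, were higher in both batches and Pla2g6, the calcium-independent phospholipase, was lower in both. Pla2g16 was 1.65-fold and 1.03-fold higher, and 1 cell held 100% and 99.6% of its reads in the naive sums. For Pla2g6 the cell with most reads held between 60.4% and 92.9% of the reads of each sum. Without it in each sum, Pla2g6 was 3.29-fold higher in batch 2 and 1.75-fold lower in batch 3. The median log2 difference of the 6 was 0.76 in batch 2 and -0.36 in batch 3. Plaa, named as an activator of phospholipase A2, went opposite ways in the batches, with 23.9 and 92.8 CPM without and 47.4 and 38.1 CPM with inflammation.

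Ptgs2, the inducible cyclooxygenase, was at 106.2 CPM in naive cells of batch 2 and 120.02 CPM in those of batch 3. In inflamed cells it was at 1780 and 2027 CPM. The groups did not overlap at the level of sums, and the fold was 16.8 in batch 2 and 16.9 in batch 3. In edgeR the log2 difference was 4.07 ± 0.28 (SE), with an unadjusted p of 0.000238 and an adjusted p of 0.568. DESeq2 gave an adjusted p of 5.2e-16. The counts behind these levels were 5995 (exact 95% Poisson interval 5844 to 6149) and 5698 (5551 to 5848) without and 140355 and 154097 with inflammation. Such intervals cover counting error only, as reads carry no molecular identifiers.

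The difference in Ptgs2 was also seen cell by cell. The median naive cell had 0.727 CPM in batch 2 and 2.13 CPM in batch 3, whereas the median inflamed cell had 1030 and 1110 CPM. Naive cells were nearly all at low levels: 2 of 53 in batch 2 and 1 of 59 in batch 3 exceeded the inflamed median of their batch. A few naive cells were high, up to 1230 CPM in batch 2 and 4340 CPM in batch 3, where that cell alone supplied 66.4% of the reads of the sum. Without the cell with most reads in each sum, the Ptgs2 fold was 19.2 in batch 2 and 45.3 in batch 3. The share of cells with a Ptgs2 read was 52.8% and 64.4% without and 98.8% and 93.4% with inflammation (exact 95% intervals 38.6 to 66.7%, 50.9 to 76.4%, 93.2 to 100% and 85.3 to 97.8%). At least 5 reads were present in 13.2% and 27.1% of naive but in 96.2% and 81.6% of inflamed cells. In cells thinned to 500000 counts, the shares with a read were 34.8% and 56.4% in naive and 100% and 88.9% in inflamed cells.

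**Figure D2:**
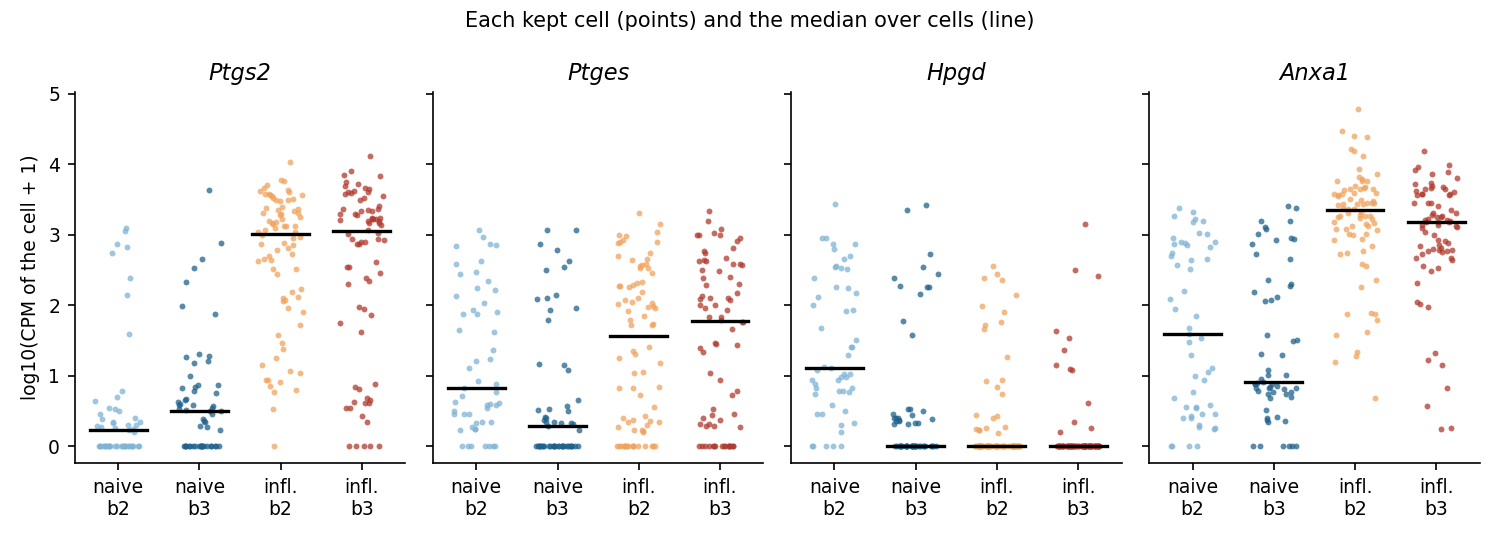
Level of Ptgs2, Ptges, Hpgd and Anxa1 in every kept cell, as log10 of CPM of the cell plus 1, by condition and batch (b2 and b3); points are cells and lines are medians over cells. Ptgs2 and Anxa1 medians are at 1030 CPM or more in inflamed cells and at 38.1 CPM or less in naive cells, while the Hpgd median is 0 outside naive batch 2.

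Ptgs1, the cyclooxygenase of housekeeping functions, was far scarcer and uneven between cells. It was at 31.22 and 3.349 CPM without and at 78.52 and 20.03 CPM with inflammation. Within each batch the inflamed sum was the higher, by 2.51-fold and 5.98-fold, but naive batch 2 lay above inflamed batch 3. The log2 difference was 1.95 ± 0.85 (SE), with an adjusted p of 0.614 in edgeR and 0.13 in DESeq2. A single cell supplied 89.2% of the Ptgs1 reads of naive batch 2, and without the cell with most reads in each sum the folds were 18.4 and 10.2. The naive sum of batch 2 rested on 1762 counts (exact 95% Poisson interval 1681 to 1846), and the interval in batch 3 was 135.2 to 185.7 counts. A read of Ptgs1 was found in 34% and 11.9% of naive and 52.5% and 30.3% of inflamed cells. Ptgs1 shares some exonic bases with Gm43621, a gene on the other strand with few reads, and the labels do not mark the strand of the reads.

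Ptges, the synthase that acts after the cyclooxygenases, differed less. Its level was 136.6 and 98.6 CPM without and 217.7 and 290.5 CPM with inflammation. The sums of the conditions did not overlap, which says little with 2 sums per condition, and the folds were 1.59 and 2.95 in batches 2 and 3. The log2 difference of 1.12 ± 0.42 (SE) did not pass, with an adjusted p of 0.576 in edgeR and 0.213 in DESeq2. The median cell was higher in inflamed groups, at 5.6 and 0.94 CPM without and 37.9 and 58.5 CPM with inflammation. Ptges reads were seen in 86.8% and 52.5% of naive and in 80% and 78.9% of inflamed cells.

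The synthesis list had members in both directions. Of 12 genes listed for prostaglandin synthesis, 9 were tested, 4 were higher and 5 were lower in each batch, and the median log2 difference was -0.2 in batch 2 and -0.26 in batch 3. Ptges2, a membrane-associated prostaglandin E synthase, was at 41.1 and 12.3 CPM without and at 5.37 and 1.72 CPM with inflammation, which is 7.66-fold and 7.15-fold lower. Fam213b, a prostamide and prostaglandin F synthase, was at 69.2 and 41.1 CPM without and at 14.9 and 11.1 CPM with inflammation, or 4.65-fold and 3.69-fold lower. For both, single cells set much of the level. The cell with most reads held 85.3% and 89.1% of the Ptges2 reads without and 48.7% and 65.6% with inflammation, and without it in each sum Ptges2 was 2.19-fold and 2.29-fold lower. For Fam213b the cell with most reads held 59.8% and 20.4% without and 22.5% and 45.6% with inflammation, and without it the gene was 2.43-fold and 5.41-fold lower. Neither passed, with adjusted p of 0.602 and 0.572 in edgeR and 0.0699 and 0.0836 in DESeq2. Ptges3, a chaperone partner also described as a cytosolic prostaglandin E synthase, was abundant in all 4 sums, at 1038 and 1599 CPM without and at 902.3 and 1076 CPM with inflammation. DESeq2 called 1 of the 9 genes higher (Ptgs2) and 1 lower. The latter, Hpgds, the hematopoietic prostaglandin D synthase, was at 65.2 and 0.0211 CPM without and at 1.86 and 0.0 CPM with inflammation, with an adjusted p of 0.0138 in DESeq2 and 0.568 in edgeR. A single cell held 99.7% of its reads in naive batch 2, and without the cell with most reads in each sum its level there was 0.2 CPM, beside 0.567 CPM in inflamed batch 2. In batch 3 Hpgds had at most 1 count in a sum, and with it left out there, the median log2 difference of the list in batch 3 was 0.3 in place of -0.26. Ptgds, Ptgis and Tbxas1, the synthases of prostaglandin D2, prostacyclin and thromboxane, had no read in any sum.

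Hpgd, the inactivating dehydrogenase, went the other way. It was at 149.4 and 100.2 CPM without and at 21.74 and 37.27 CPM with inflammation in batches 2 and 3. Both inflamed sums lay below both naive sums, by 6.87-fold in batch 2 and 2.69-fold in batch 3. In edgeR the log2 difference was -2.10 ± 0.63 (SE), with an unadjusted p of 0.0323 and an adjusted p of 0.568, and DESeq2 gave an adjusted p of 0.0206. The counts were 8431 (exact 95% Poisson interval 8252 to 8613) and 4755 (4621 to 4892) without and 1714 (1634 to 1797) and 2834 (2731 to 2940) with inflammation. A single cell held 69.3% of the Hpgd reads of inflamed batch 3. Without the cell with most reads in each sum, Hpgd was 7.66-fold and 6.13-fold lower in inflamed cells.

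The share of cells with a read of Hpgd differed between the batches as well as between the conditions. It was 90.6% (exact 95% interval 79.3 to 96.9%) in naive batch 2, 47.5% (34.3 to 60.9%) in naive batch 3, 30% (20.3 to 41.3%) in inflamed batch 2 and 17.1% (9.43 to 27.5%) in inflamed batch 3. In thinned cells the order was the same, at 80.4%, 40%, 28.6% and 15.3%. High Hpgd, at 100 CPM of the cell or more, marked 18 of 53 and 10 of 59 cells without and 5 of 80 and 3 of 76 cells with inflammation. The highest inflamed cell reached 357 CPM in batch 2 and 1430 CPM in batch 3.

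The breakdown and transport list, Hpgd included, had no common direction. All 7 of its genes were tested, 1 (Abcc4) was higher and 2 (Hpgd and Slco2a1) were lower in both batches, and the median log2 difference was -0.53 in batch 2 and 0.26 in batch 3. Slco2a1, the carrier that brings prostaglandins into cells for inactivation, was at 268 and 311 CPM without and at 225 and 273 CPM with inflammation. Abcc4, an exporter that carries prostaglandins among other organic anions, had no read in naive batch 2 and 4.23 CPM in naive batch 3, but it reached 44.4 and 42.7 CPM with inflammation. In batch 3 this is 10.1-fold higher. A single cell held 91.1% of the Abcc4 reads of inflamed batch 3 and another 58.2% of those of naive batch 3, and without them the fold was 2.13. In inflamed batch 2 the cell with most reads held 29.7%, and 31.6 CPM remained without it. A read of Abcc4 was found in 0.0% and 6.78% of cells without and 26.2% and 13.2% with inflammation. Abcc4 had an adjusted p of 0.676 in edgeR and 2.27e-05 in DESeq2. Ptgr2, a reductase of the next step of breakdown, was at 60.7 and 34.97 CPM without and at 12.9 and 41.9 CPM with inflammation, so the batches disagreed; 1 cell held 84.8% of its reads in inflamed batch 2.

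**Figure D3:**
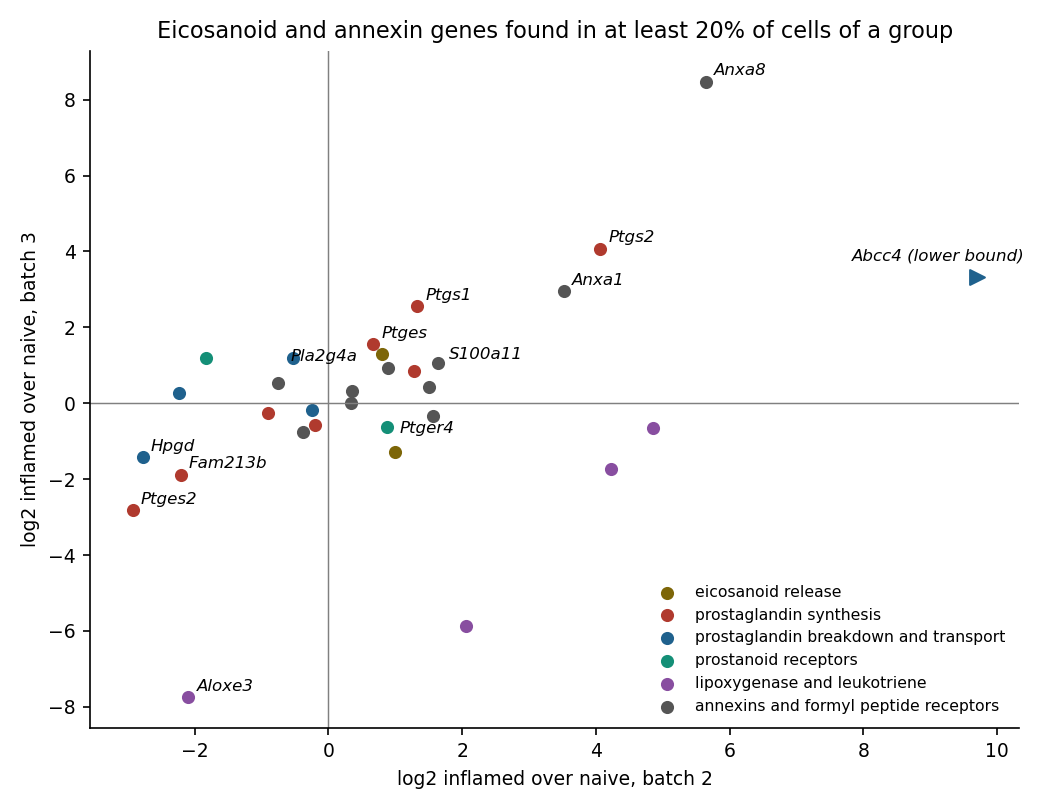
Log2 of inflamed over naive level in batch 2 (horizontal) and batch 3 (vertical) for 31 genes of the release, synthesis, breakdown and transport, receptor, lipoxygenase and annexin lists that had a read in at least 20% of the cells of a group; each point is a gene, and the triangle is a lower bound, set by a floor of 3 counts in the naive sum and covering counting error only. Ptgs2, Anxa1, Anxa8 and Abcc4 lie at the upper right, Hpgd, Ptges2, Fam213b and Aloxe3 at the lower left, and other lipoxygenase genes lie in the quadrant where the batches differ in direction.

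Synthesis, taken as Ptgs1 and Ptgs2 alone, was then set against breakdown, taken as Hpgd alone, within each sum. The reads of Ptgs1 and Ptgs2 together were 0.92 and 1.23 times the Hpgd reads in naive cells of batches 2 and 3. In inflamed cells they were 85.5 and 54.9 times the Hpgd reads. On the log2 scale the ratio was -0.12 and 0.30 in the naive and 6.42 and 5.78 in the inflamed sums, a difference of 6.54 in batch 2 and 5.48 in batch 3. With Ptgs2 as the only cyclooxygenase the differences were 6.85 and 5.50. Leaving out the cell with most reads of each gene gave 7.20 and 8.08, which moved batch 3 by more than the spread between the batches. With 1 sum per condition within a batch there is no test of this ratio. It compares reads of genes of different length, so only its difference between conditions is read here. The ratio also leaves out the other genes of both lists, whose sums differed far less. The whole synthesis list was at 1520 and 1910 CPM without and at 3030 and 3470 CPM with inflammation. The whole breakdown and transport list was at 541 and 505 CPM without and at 356 and 457 CPM with inflammation.

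**Figure D4:**
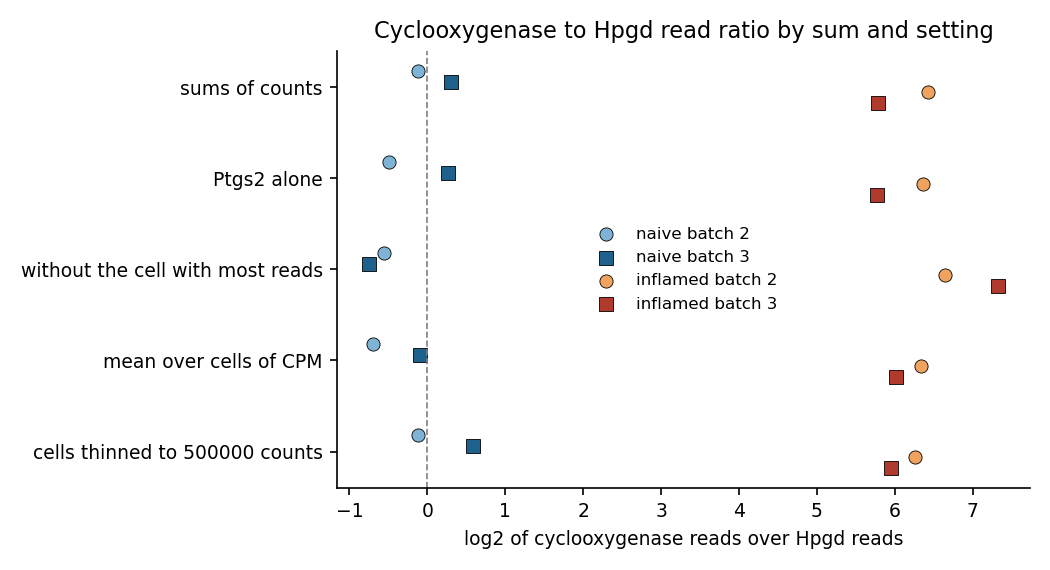
Log2 of cyclooxygenase reads over Hpgd reads (horizontal) in each of the 4 sums, for the sums of counts and 4 other ways of computing the ratio (rows). Under every one of these settings both inflamed values lie above 5 and both naive values lie between -1 and 1.

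The reads of both genes were then counted in each cell. Cells with at least 5 reads of Ptgs2 and fewer of Hpgd made up 3.77% and 23.7% of naive cells and 78.8% and 71.1% of inflamed cells. Cells with at least 5 reads of Hpgd and fewer of Ptgs2 made up 54.7% and 15.3% of naive cells but 1 of 80 and 1 of 76 inflamed cells. Both genes reached 5 reads in 9.43% and 3.39% of naive and 17.5% and 10.5% of inflamed cells. Counting any read, Hpgd without Ptgs2 marked 25 of 53 and 8 of 59 naive cells but 0 of 80 and 0 of 76 inflamed ones. The limit of 3 cells used for a share of 0 allows up to 3.75% and 3.95% here. The exact 95% intervals reach 4.51% and 4.74%. Every inflamed cell with a read of Hpgd thus also had a read of Ptgs2. A Ptgs2 read was present in 79 of 80 and 71 of 76 inflamed cells, so few cells could have Hpgd alone. These counts therefore do not show whether the 2 genes go together in inflamed cells. Across cells within a group, the Spearman correlation of Ptgs2 with Hpgd was between -0.11 and 0.14 over the 4 groups, and these values share each cell's depth.

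**Figure D5:**
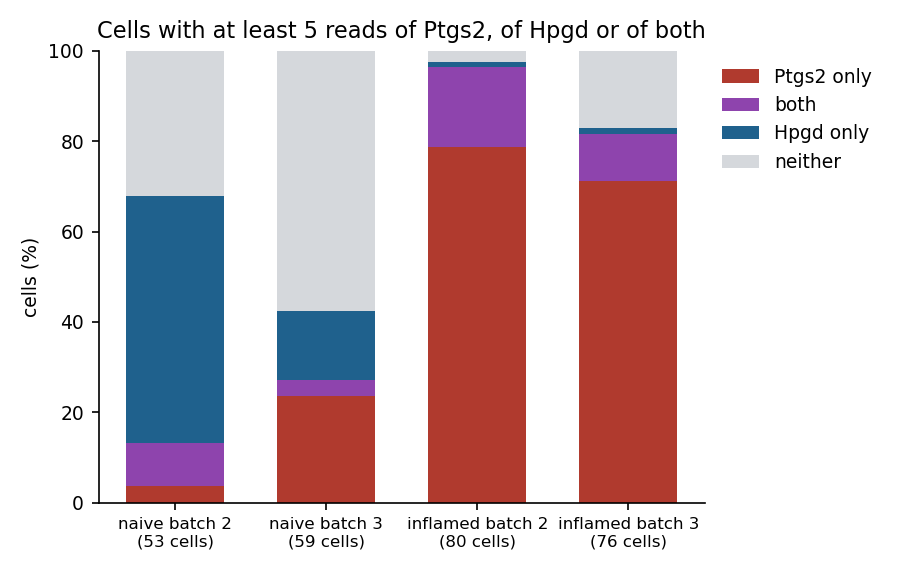
Share of cells in each of the 4 groups with at least 5 reads of Ptgs2 only, of both genes, of Hpgd only or of neither, as stacked bars adding to 100%. Cells with Ptgs2 only make up 78.8% and 71.1% of inflamed cells, and cells with Hpgd only make up 54.7% of naive cells of batch 2 and 15.3% of those of batch 3.

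The 3 consecutive steps to prostaglandin E2 were also counted per cell. Pla2g4a, Ptgs2 and Ptges each had at least 5 reads in 1 of 53 naive cells of batch 2 and in 0 of 59 of batch 3. For the latter, the limit of 3 cells allows a share of up to 5.08%, and the exact 95% interval reaches 6.06%. In inflamed cells all 3 were present in 22 of 80 (27.5%, exact 95% interval 18.1 to 38.6%) and 19 of 76 (25%, 15.8 to 36.3%). Of these inflamed cells 7 in batch 2 and 2 in batch 3 also had at least 5 reads of Hpgd. Cells with none of the 3 steps made up 39.6% and 50.8% of naive and 2.5% and 6.58% of inflamed cells. Most inflamed cells thus had at least 5 reads for 1 or 2 of the steps, and Ptgs2 was the step found in most of them. The Spearman correlation of Pla2g4a with Ptgs2 across cells was 0.24 and 0.22 in naive and 0.36 and 0.20 in inflamed cells, while that of Ptgs2 with Ptges ranged from -0.19 to 0.11.

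Ptger4, the prostaglandin E2 receptor of the set, showed no common direction. It was at 11.73 and 14.98 CPM without and at 21.59 and 9.653 CPM with inflammation. Inflamed cells were 1.84-fold higher in batch 2 and 1.55-fold lower in batch 3, and the sums interleaved. The log2 difference was 0.12 ± 1.24 (SE) with an adjusted p of 1 in edgeR and 0.982 in DESeq2. A single cell held 75.8% of the Ptger4 reads of naive batch 2. A read was found in between 17% and 25.4% of the cells of each group. Ptger4 shares exonic bases with Ttc33 on the other strand, and reads there cannot be assigned by strand.

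Other prostanoid receptors were scarcely read. Of the 9 listed, Ptger2, Ptgdr, Ptgdr2, Ptgfr and Tbxa2r had no read in any sum, and 2 were tested. Ptger3, an inhibitory receptor for prostaglandin E2, was at 61.7 and 17.3 CPM in naive and inflamed cells of batch 2 but at 0.0632 and 0.184 CPM in those of batch 3. Its level thus followed the batch more than the condition, and it had an adjusted p of 1 in edgeR. Within batch 2 Ptger3 was 3.57-fold lower with inflammation, with a read in 84.9% of naive and 16.2% of inflamed cells. The naive and inflamed sums of batch 3 rested on 3 and 14 counts.

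Anxa1 was the most abundant of the 7 genes. Its level was 398 and 333.8 CPM without and 4560 and 2598 CPM with inflammation in batches 2 and 3. The conditions did not overlap, and the fold was 11.5 in batch 2 and 7.78 in batch 3. In edgeR the log2 difference was 3.24 ± 0.30 (SE) with an unadjusted p of 0.000657 and an adjusted p of 0.568, and in DESeq2 the adjusted p was 5.3e-10. Nearly every cell had a read of Anxa1, 92.5% and 89.8% of naive and 100% of both groups of inflamed cells. The level per cell differed far more than the share: the median cell had 38.1 and 7.24 CPM without and 2210 and 1490 CPM with inflammation. Only 1 of 53 and 4 of 59 naive cells were above the inflamed median of their batch. An inflamed cell of batch 2 reached 60600 CPM and held 19.3% of the reads of its sum, and without the cell with most reads in each sum the folds were 10.3 and 8.09.

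Several relatives of Anxa1 were also higher in inflamed cells. Of 17 genes listed as annexins, their S100 partners and formyl peptide receptors, 13 were tested, Anxa1 included, and 8 were higher and 2 lower in both batches. Over all 14713 genes tested, 4542 were higher and 4068 lower in both. The median log2 difference of the 13 was 0.89 in batch 2 and 0.42 in batch 3. Anxa8, an annexin of stratified epithelia, was at 3.31 and 0.211 CPM without and at 166.9 and 86.1 CPM with inflammation. Its adjusted p was 0.568 in edgeR and 3.46e-15 in DESeq2. All Anxa8 reads of naive batch 2 came from 1 cell of 53. S100a11, a calcium-binding partner of Anxa1, was at 101.9 and 110.4 CPM without and at 318 and 230 CPM with inflammation, or 3.12-fold and 2.09-fold higher, with an adjusted p of 0.568 in edgeR and 0.0902 in DESeq2. Anxa2 was at 1576 and 1552 CPM without and at 2926 and 2947 CPM with inflammation, with an adjusted p of 0.568 in edgeR and 0.215 in DESeq2. Anxa5, a common marker of exposed phosphatidylserine, was at 967.1 and 1201 CPM without and at 1225 and 1205 CPM with inflammation. S100a10, the other S100 gene listed, was lower in both batches, at 358.6 and 348 CPM without and at 275.6 and 205.6 CPM with inflammation. The formyl peptide receptors Fpr1, Fpr2 and Fpr3 had no read in any sum.

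The lipoxygenase branch, which uses the same arachidonic acid, showed no common direction. Of 12 genes listed, 4 had no read, 6 were tested, 1 was higher and 1 lower in both batches, and the median log2 difference was 3.71 in batch 2 and -1.26 in batch 3. Aloxe3, an epidermal lipoxygenase, was lower in inflamed cells of both batches, at 24.6 and 12.2 CPM without and at 5.73 and 0.0263 CPM with inflammation, with an adjusted p of 0.71 in edgeR and 0.0194 in DESeq2. A single cell held 93.5% of its reads in naive batch 2, and the sum of inflamed batch 3 rested on 2 counts. Without the cell with most reads in each sum, batch 2 turned the other way, with 1.63 CPM in naive and 3.67 CPM in inflamed cells. Lta4h, which makes leukotriene B4, was at 3.54 and 77.6 CPM without and at 103.5 and 49.6 CPM with inflammation, so it was higher with inflammation in batch 2 and lower in batch 3.

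Levels of different genes were compared per kilobase of exonic length. In naive cells Anxa1 was first, at 136.7 and 114.7 CPM per kilobase in batches 2 and 3, and Hpgd next, at 88.8 and 59.5. Ptges (34.7 and 25.1) and Ptgs2 (23.2 and 26.2) followed and exchanged places between the batches, so their order was not set apart from the spread. In inflamed cells Anxa1 (1567 and 892.4) was still first, and Ptgs2 (389 and 443) was next, ahead of Ptges (55.4 and 73.9). Hpgd was at 12.9 and 22.1 CPM per kilobase there and changed places with Pla2g4a (26.4 and 20.5) between the batches. Ptger4 was between 1.45 and 3.25 CPM per kilobase in all 4 sums.

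Genes whose level across inflamed cells was most like that of Ptgs2, Anxa1 or Hpgd were ranked by the lower of the Spearman correlations in the 2 batches, over 80 and 76 cells and about 5970 genes. For Ptgs2 they were Jag1 (0.40 in both batches), Adam10 (0.35 and 0.37), Tagln2, Itgb6 and Sh3rf1. Jag1 encodes a Notch ligand and Adam10 a membrane protease. For Anxa1 they included Anxa2 (0.49 and 0.40), Gm7665, Cd9-ps and Cd9, where Cd9-ps is a copy of Cd9 by name and may share its reads. For Hpgd they were Gm7099, Ndufb10 (0.31 and 0.35), Cyb5r3, Gm5434 and Gstm2. These correlations are moderate and describe these cells. The number of detected genes per cell correlated with Ptgs2 at 0.09 and 0.02, with Anxa1 at 0.23 and 0.26 and with Hpgd at 0.37 and 0.17.

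Other gene groups were also compared between the conditions, and their part in the levels of the 7 genes was not tested. Of all 14713 genes tested, 4542 were higher and 4068 lower in both batches, and DESeq2 called 6.3% higher and 3.63% lower. Of 18 immediate early and dissociation genes, which tissue digestion can induce, none was higher and 16 were lower in inflamed cells of both batches, and their summed level was 27100 and 37500 CPM without and 6130 and 9210 CPM with inflammation. DESeq2 called 14 of them lower. Ptgs2 itself is often counted as an immediate early gene, and here it stood opposite to Fos, at 2426 and 2677 CPM without and at 350 and 425 CPM with inflammation, and to Egr1, at 5671 and 9366 CPM without and at 376 and 802 CPM with inflammation. Of 15 NF-kB-responsive genes 14 were tested, 9 were higher and 1 lower in both batches, and DESeq2 called 6 higher. Of 10 glucocorticoid targets, a hormone class known to induce Anxa1, 1 was higher and 7 lower in both batches, and DESeq2 called 4 lower. Tsc22d3, a lower one, was at 324 and 384 CPM without and at 28.9 and 47.1 CPM with inflammation. Sgk1, the higher one, was at 614.7 and 1543 CPM without and at 3176 and 2119 CPM with inflammation. The summed level of the 10 was 4300 and 4790 CPM without and 4870 and 3740 CPM with inflammation. Of 14 luminal markers, both batches put 4 higher and 5 lower, so they had no common direction. Among them, Krt19 was at 30.3 and 100.9 CPM without and at 584 and 619 CPM with inflammation.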

How the data were processed

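Single-cell RNA-seq profiles were deposited by the authors as raw read counts, with 1 table of cells for each batch, without molecular identifiers. The submitters' processing notes name TopHat2, HTSeq, R 3.4.1, Seurat 1.4 and GRCm38.p6, without roles. The sources used here do not say how multi-mapping reads were counted. Gene symbols, lengths and overlaps came from a GENCODE annotation of GRCm38 (48058 of 48440 rows matched), and promoters from RefSeq.

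Cells needed at least 1000 detected genes and 50000 counts, which left out 14 cells, and no doublet caller was run. Counts were summed by condition and batch. edgeR 4.0.16 gave the main test (quasi-likelihood, TMM factors, filterByExpr, batch and condition in the model) in R 4.3.3 over all genes with Benjamini-Hochberg adjustment, and it was tested on simulated data. With 1 residual degree of freedom, beside 2.66 prior ones, p-values rest on how far the inflamed to naive difference disagrees between the 2 batches. That disagreement may be technical, since the labels name no animal. The labels' batch pairs the sums, and across genes the deviations of the naive and inflamed sums from their means correlated at -0.011. DESeq2 1.42.0, other scalings and filters, thinning to 500000 counts and leaving out single cells or a batch were alternatives; leaving out the top cell of pathway genes was added after seeing the data. CPM of the sums use the TMM-scaled library sizes, CPM of a cell use the counts of that cell, and CPM of thinned cells use their 500000 counts. Shares have exact Clopper-Pearson intervals and counts exact Poisson intervals at 95%. A share of 0 is given with a limit of 3 cells.

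The 7 genes and the gene lists were chosen with earlier results of these data known. Other genes of the pathway lists were named where at least 20% of the cells of a group had a read and both batches differed 2-fold or more in the same direction. For Ptgs2, Anxa1 and Hpgd, the 5 genes with the highest lower correlation over the batches were named, among genes read in at least 20% of inflamed cells of each batch. A gene that this rule gave for Anxa1 is not reported here. Plaa, Pla2g6, Pla2g16, Ptges3, Hpgds, Slco2a1, Ptgr2, Ptger3, Lta4h, Anxa2, Anxa5, S100a10 and the genes named for the background lists were picked after their values were seen.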

Additional observations from a re-analysis of the deposited data

Results flagged for a closer look

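Ptger4 was the member whose difference between conditions had opposite signs in the 2 batches. The log2 ratio of inflamed over naive was 0.88 in batch 2 and -0.634 in batch 3, and this difference between the batches was not tested, since each condition has 1 sum per batch. A single cell held 75.8% of the Ptger4 reads of naive batch 2, and without the cell with most reads in each sum its fold was 6.03 in batch 2 and 0.631 in batch 3.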

How the results depend on the processing

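No gene passed edgeR's adjusted threshold under any of the 9 edgeR settings, while DESeq2 called 927 genes as higher and 534 as lower. Without adjustment, DESeq2 had 1743 genes higher and 1136 lower at p under 0.05, and edgeR without the replicate block found 1155 higher and 681 lower. DESeq2 called Ptgs2 (log2 difference 4.07), Anxa1 (3.23) and Hpgd (-2.11). With the replicate block left out, Ptgs2 had an adjusted p of 0.297, and no call on the 7 genes changed. The 7 genes kept their direction under every setting fitted to all 4 sums. With a batch left out, giving values without a test, Ptges ranged from 0.67 to 1.56, Hpgd from -2.78 to -1.43, and Ptger4 from -0.63 to 0.88, which reverses its sign. The synthesis against breakdown difference of batch 3 was 8.08 without the cells with most reads, against 5.48; the cause was not tested. The same step, added after seeing the data for the other pathway genes, turned Aloxe3 in batch 2 from -2.10 to 1.17. Of 56 shares of cells recomputed at 5 reads or in thinned cells, 27 left the interval of the share with any read. With 2 batches, no animals named and single cells holding most reads of Ptgs1, Ptgs2, Pla2g4a, Hpgd and Ptger4 in some sum, the size of these genes' differences is uncertain.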
